A study of Homo sapiens with 4 samples.

Results

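In OPM-2 cells exposed to pomalidomide, with or without all-trans retinoic acid, 7417 accessible regions were called that were called in neither the vehicle library nor the retinoic acid library. They were found by merging all overlapping peaks of 4 deposited ATAC-seq peak lists on chromosomes 1 to 22 and X into 122632 regions and keeping those with a peak in both pomalidomide-containing lists and none in the others. The 7417 regions make up 6.05% of all merged regions (95% Wilson interval 5.92 to 6.18). They are also 13.5% (13.2 to 13.8) of the 54997 regions called in both pomalidomide-containing lists. The regions were chosen by the presence and absence of called peaks. Their number and their peak heights therefore describe the choice and are no finding. Position in the genome was not part of the rule but is tied to it through peak height. Among regions called in all lists, those with higher pomalidomide peaks lay near a gene start or end more often. Such regions seldom lacked a vehicle and a retinoic acid peak, so position is not independent of the choice.

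OPM-2 is an established human multiple myeloma line with the t(4;14) translocation, used here in a study of resistance to immunomodulatory drugs. Cells were exposed for 72 h to 1 µM pomalidomide (POM), to 1 µM all-trans retinoic acid (ATRA) plus 1 µM POM (ATRA+POM), to 1 µM ATRA, or to the vehicle DMSO. Each of the 4 groups had 1 library, so no value below can be set against replicates and no test was run. A peak called in one list and not in another therefore compares those libraries, and intervals cover counting error only.

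ATAC-seq uses the Tn5 transposase to insert adapters into DNA that nucleosomes leave open, so peaks mark promoters, enhancers and other sites held open by bound proteins. Pomalidomide binds cereblon, the substrate receptor of a ubiquitin ligase, and directs it to the lymphoid transcription factors IKZF1 (Ikaros) and IKZF3 (Aiolos), which are then degraded. Retinoic acid binds the retinoic acid receptors, which pair with retinoid X receptors on DNA. Promoters of widely used genes tend to be open in most cells, while accessible sites far from genes differ more between cell types and states.

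Both POM-containing libraries were shallower than the others. The lists held 69162 peaks for POM, 85434 for ATRA+POM, 76636 for ATRA and 76402 for DMSO. Background coverage recovered from the peak statistics was 0.55 reads for POM, 1.51 for ATRA+POM, 2.36 for ATRA and 2.36 for DMSO, which places the depth of POM at 33.6%, of ATRA+POM at 62.7% and of ATRA at 94.1% of DMSO. The narrowest peak called was 162 bp in POM, against 238, 248 and 234 bp in ATRA+POM, ATRA and DMSO. How far depth and this width set which regions were called was not tested. Peaks within 1 kb of the start site were present in all 4 lists for each of the 5 plasma cell genes with a start site in the table used (IRF4, PRDM1, XBP1, SDC1 and CD38), and in 0 lists for 3 T cell and monocyte genes (CD3D, CD14 and CSF1R).

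Few of the 7417 regions lay on a promoter. Of the 15736 RefSeq promoter windows that held any merged region (250 bases before to 50 bases after a start site, GRCh38.p14, without one autosome that the sequence table does not cover), 118 (0.75%) held one called in the POM and ATRA+POM lists only. The windows of RPE65, CASP5, GBP4 and DPP10 are printed 5′ to 3′ because they belong to some of the strongest regions at a start or end of protein-coding genes; windows of non-coding RNA genes with stronger regions are not shown. Capitals mark matches, on either strand, to the motifs searched.
RPE65 (chr1:68449905-68450204, minus strand): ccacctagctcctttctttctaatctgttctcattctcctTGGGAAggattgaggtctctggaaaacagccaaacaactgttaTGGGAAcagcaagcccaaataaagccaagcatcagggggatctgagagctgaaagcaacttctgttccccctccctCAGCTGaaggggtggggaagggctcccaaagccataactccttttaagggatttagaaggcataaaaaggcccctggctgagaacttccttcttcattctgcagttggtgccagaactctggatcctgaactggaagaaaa
CASP5 (chr11:105023119-105023418, minus strand): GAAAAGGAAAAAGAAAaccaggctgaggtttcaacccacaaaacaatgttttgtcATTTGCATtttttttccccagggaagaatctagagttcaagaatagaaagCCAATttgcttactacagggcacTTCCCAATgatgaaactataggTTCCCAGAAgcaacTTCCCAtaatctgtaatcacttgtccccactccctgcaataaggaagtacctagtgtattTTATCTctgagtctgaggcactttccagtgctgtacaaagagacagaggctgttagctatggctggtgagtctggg
GBP4 (chr1:89198893-89199192, minus strand): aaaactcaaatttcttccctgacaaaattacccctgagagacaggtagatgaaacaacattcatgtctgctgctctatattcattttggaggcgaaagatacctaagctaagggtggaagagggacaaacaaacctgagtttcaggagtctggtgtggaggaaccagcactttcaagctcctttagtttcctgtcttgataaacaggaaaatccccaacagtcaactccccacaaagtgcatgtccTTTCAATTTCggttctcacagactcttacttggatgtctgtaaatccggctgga
DPP10 (chr2:114442391-114442690, plus strand): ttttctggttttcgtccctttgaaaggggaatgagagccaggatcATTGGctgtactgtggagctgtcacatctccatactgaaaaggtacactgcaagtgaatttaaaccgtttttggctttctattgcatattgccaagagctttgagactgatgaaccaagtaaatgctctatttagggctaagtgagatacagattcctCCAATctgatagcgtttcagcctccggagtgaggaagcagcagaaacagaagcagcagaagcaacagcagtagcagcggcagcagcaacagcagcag
RPE65 encodes the retinoid isomerase of the retinal pigment epithelium, and the capitals in its window are 2 Ikaros matches (TGGGAA) and 1 E-box (CAGCTG). CASP5 encodes an inflammatory caspase, and its capitals include 2 overlapping IRF matches (GAAA repeated after a spacer of 2 bases) at the 5′ end, 3 Ikaros matches, 2 NF-Y matches (CCAAT), an octamer (ATGCAAAT), a STAT match (TTCNNNGAA) and a GATA match (AGATAA), some of which overlap. GBP4 encodes an interferon-inducible guanylate-binding protein, and the capitals in its window are 1 IRF match on the other strand. DPP10 encodes an inactive peptidase-like protein that modulates potassium channels, and its window holds 2 NF-Y matches.

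Over the 118 windows, base composition and motifs differed from those of promoters called in all lists. The sets also differed in gene type: 52 of the 118 windows were of protein-coding genes, against 11269 of the 13974 with a region called in all 4 lists. No comparison within a gene type was made. Median GC content was 47.5%, against 65.7% in the 13974 windows with a region called in all 4 lists and 58.7% in all 34789 windows of the table. The median number of CpG dinucleotides per window was 3, against 27 in windows with a region in all lists and 14 in all windows. The Sp/KLF motif GGGCGG was present in 7.63% of the 118 windows (interval 4.06 to 13.9), against 70.7% of windows with a region in all lists and 44.9% of all windows. The ETS motif CCGGAA stood at 6.78% (3.48 to 12.8), against 30.6% of windows with a region in all lists and 17.2% of all windows. Some other motifs were present in a larger share of the 118 windows. The E-box CAGCTG stood at 33.1% (25.2 to 42.0), against 16.7% of windows with a region in all lists and 17.9% of all windows. RUNX (TGTGGT) stood at 18.6% (12.6 to 26.6), against 9.83% of windows with a region in all lists. Its interval covers the 13.1% of all windows. GATA, the motif of the GATA factors, stood at 19.5% (13.4 to 27.6), against 4.52% of windows with a region in all lists and 10.4% of all windows. The motif of the interferon regulatory factors stood at 10.2% (5.91 to 16.9), against 2.68% of all-list windows and 3.57% of all windows. AP-1 (TGANTCA) stood at 11.9% (7.20 to 18.9), against 4.19% of all-list windows. The AP-1 interval covers the 7.69% of all windows. STAT factors act downstream of cytokine and interferon receptors. Their motif stood at 16.1% (10.6 to 23.8), against 5.79% of all-list windows and 7.65% of all windows. The Ikaros motif stood at 34.7% (26.8 to 43.7), against 21.4% of all-list windows and 24.02% of all windows. The retinoid half-site AGGTCA, which other nuclear receptors also bind, stood at 21.2% (14.8 to 29.4), against 9.22% of all-list windows and 13.8% of all windows. The NF-Y interval spanned both other shares, at 38.1% (29.9 to 47.1), against 35.6% of all-list windows and 34.6% of all windows. The octamer and CREB (TGACGTCA) motifs each stood at 1.69%, against 1.77% (octamer) and 1.84% (CREB) of all windows. NF-kB (GGGACTTTC) stood at 0.847%, against 0.388% of all windows, and MEF2 (TATTTATA) at 2.54%, against 1.43%. For each of these rarer motifs the interval covers the share of all windows. Paired retinoid half-sites with a spacer of 5 bases or of 1 base were in 0 of the 118 windows, which allows at most 3.15% by the upper Wilson bound, and in 1 and 4 of the 13974 windows with a region in all lists. The 118 windows rest on 107 regions and some overlap one another, so the intervals are too narrow. With overlapping windows counted once in each set, 109 were left. Of these, 19.3% (13.0 to 27.7) held the retinoid half-site, an interval that covers the 14.1% of all windows. AP-1 was in 12.8% (7.81 to 20.4), which again covers the share of all windows (8.19%). GATA stood at 18.3% (12.2 to 26.6) there, against 11.01% of all windows, the IRF motif at 11.01% (6.41 to 18.3), against 3.76%, and STAT at 14.7% (9.24 to 22.5), against 7.95%. The E-box stood at 34.9% (26.6 to 44.2), against 18.1% of all windows. RUNX stood at 18.3% (12.2 to 26.6), which covers the 13.4% of all windows. Windows that differ in GC content differ in how often any short motif occurs by base composition, and no correction for that was made.

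Of 156 miRNA hairpins that overlapped any merged region, 5 (3.21%) overlapped one of the 7417, beside 6.05% of all merged regions. They were MIR26A1, MIR422A, MIR6076, MIR5702 and MIR6760. The mature forms of the miRNA of this group with the widest known roles and of the one with the highest smaller-of-both −log10 q-value are shown, 5′ to 3′, with the seed (bases 2 to 8) in capitals. The −log10 q-value is the caller's own measure of how far a summit stands above background, and both lists of a region give one, of which the smaller is used to rank it.
hsa-miR-26a-5p (chr3:37969413-37969434, plus strand): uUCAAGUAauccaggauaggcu
hsa-miR-422a (chr15:63870989-63871010, minus strand): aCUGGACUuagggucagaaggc
The seeds differ. miR-26a, which targets the Polycomb methyltransferase EZH2 among other transcripts, is also made from a hairpin on another chromosome. The MIR26A1 region, chr3:37969425-37969909, had a summit pileup of 16 reads in POM and 31 in ATRA+POM, and the MIR422A region, chr15:63870543-63871004, had 22 in POM and 27 in ATRA+POM. Neither region had a peak in DMSO or ATRA.

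Most of the 7417 regions were low peaks. The summit pileup, the number of reads stacked at the highest point of a peak, ranged from 4 to 112 in POM with a median of 9 (quartiles 6 and 13), and from 7 to 182 in ATRA+POM with a median of 17 (quartiles 13 and 25). DMSO and ATRA have no value at these places, since the lists give none outside peaks, and the smallest pileup called in either was 8. The deposited fold of summit over background had a median of 5.81 in POM and 6.13 in ATRA+POM, against 10.01 in POM and 9.48 in ATRA+POM in the 42930 regions called in all lists. Peaks were 295 bp wide in POM and 486 bp in ATRA+POM at the median, against 461 bp in POM and 688 bp in ATRA+POM in regions called in all lists. Of the 7417 regions, 7369 had 1 peak in each list, and together they covered 4172 kb.

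Pileups in different libraries were put on one scale through the median pileup ratio to DMSO over the regions called in all lists, which was 0.396 for POM, 0.707 for ATRA+POM and 0.873 for ATRA. On that scale the 7417 regions had a median of 22.7 reads from POM and 24.04 from ATRA+POM. This scale assumes that regions called in all lists did not change on the whole, and local background also enters the call. The number of strong regions was small: 1548 reached a −log10 q-value of 10 in both lists, 345 reached 20 and 41 reached 40.

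**Figure D1:**
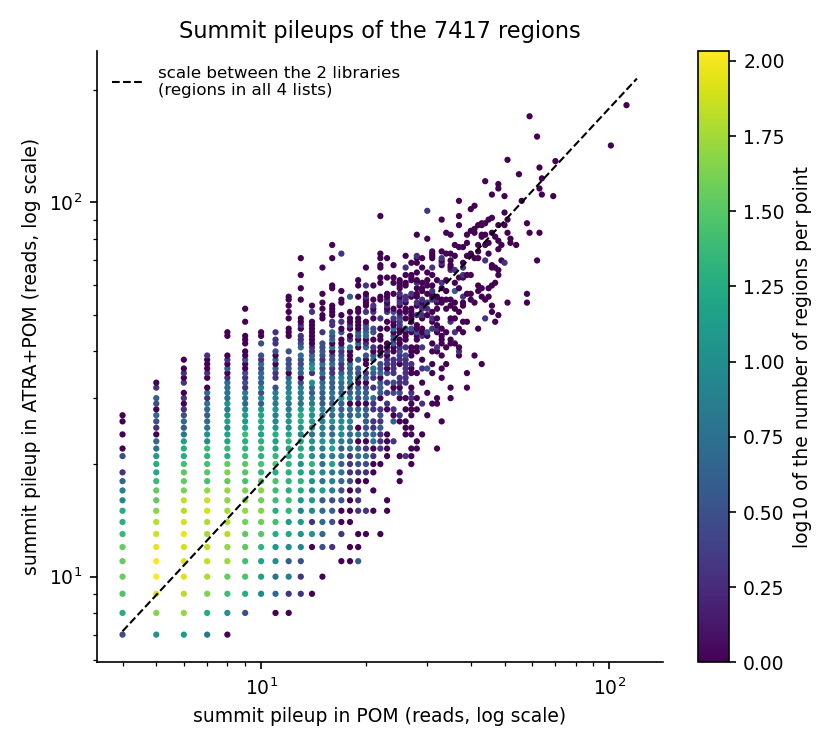
Summit pileup in ATRA+POM against POM, in reads on log axes, for the 7417 regions; each point is a pair of pileups and its colour the log10 of the number of regions there. The dashed line is the scale between both libraries from regions called in all lists. Points run along the line, with most of them near the medians of 9 reads in POM and 17 in ATRA+POM, and with the RXRG region at 112 and 182.

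At the edge of the rule, the 5 regions with the lowest −log10 q-value in POM had 1.32 to 1.34 and pileups of 4 to 5, and the 5 lowest in ATRA+POM had 1.33 to 1.55 and a pileup of 7. Just outside, 5 regions were kept out by a single DMSO or ATRA peak with a −log10 q-value of 1.31 and a pileup of 8. In all, 4650 regions were kept out by a peak in 1 of those lists alone, 2763 by DMSO and 1887 by ATRA, and in 282 of them that peak had a −log10 q-value under 2.

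The share of such regions was lower at higher peaks. Of regions called in both POM-containing lists with a POM pileup of 4 to 7 reads, 42.1% lacked a DMSO and an ATRA peak. The share was 24.97% at 8 to 11 reads, 14.99% at 12 to 15, 8.39% at 16 to 23, 4.73% at 24 to 31, 2.46% at 32 to 47 and 0.424% (40 of 9427) at 48 or more.

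Since the rule asked for a peak in both POM-containing lists, the heights in these are compared as a description. The log2 ratio of the ATRA+POM to the POM pileup, relative to the scale of both libraries, had a median of 0.16 (order-statistic 95% interval 0.11 to 0.16) and an SD of 0.52 over the 7417 regions, against a median of 0.015 and an SD of 0.48 over regions called in all lists. At matched POM pileup the order was the other way: the median was lower than in regions called in all lists in 6 of 7 height classes, for instance 0.36 against 0.54 at 4 to 7 reads and −0.14 against −0.04 at 16 to 23 reads. Over the 1548 regions with a −log10 q-value of at least 10 in both lists the median was −0.079. The summits in both lists lay 57 bp apart at the median, against 42 bp in regions called in all lists, and 69.7% were within 100 bp of each other, against 79.3%. Across regions, the log2 pileups of both libraries correlated with Spearman's rho of 0.70 and Pearson's r of 0.76 (n = 7417), against 0.90 and 0.91 over regions called in all lists (n = 42930). These are descriptions across regions, which are not independent replicates and share the same libraries.

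The 10 regions with the highest smaller-of-both −log10 q-values lay far from protein-coding genes, with 2 exceptions. The strongest, chr1:165482079-165482669, lay 37.2 kb from RXRG, which encodes the retinoid X receptor gamma. Its pileup was 112 in POM and 182 in ATRA+POM, which correspond to 283 reads (from POM) and 257 reads (from ATRA+POM) at the DMSO scale. The nearest DMSO peak was 18.96 kb and the nearest ATRA peak 29.1 kb away. A pair of regions flanked GOLIM4, a Golgi membrane protein gene. The region at chr3:168154845-168155788, 59.5 kb away, had pileups of 101 in POM and 142 in ATRA+POM, and that at chr3:167941459-167942265, 66.9 kb away on the other side, had 69 in POM and 104 in ATRA+POM. Both had DMSO and ATRA peaks within 13 kb.

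The region at chrX:81390055-81390732 lay 91.9 kb from SH3BGRL, which encodes a small SH3-binding adaptor-like protein, with pileups of 63 in POM and 109 in ATRA+POM. The region at chr16:62130066-62131034 lay 94.3 kb from CDH8, a type II cadherin gene, with 70 in POM and 129 in ATRA+POM. It had an ATRA peak 3.23 kb away and its nearest DMSO peak 38.7 kb away. Both regions inside genes were chr4:105765934-105766542 in GSTCD, which encodes a protein with a glutathione S-transferase C-terminal domain (63 in POM, 83 in ATRA+POM), and chr15:40815107-40816020 in PPP1R14D, which encodes an inhibitor of protein phosphatase 1 (58 in POM, 88 in ATRA+POM). The PPP1R14D summit lay 71 bp from a gene boundary, meaning the start or the end of a protein-coding gene. The remaining 3 had no protein-coding gene within 100 kb. They were chr4:130738043-130739016 (64 in POM, 116 in ATRA+POM, 1622 kb from the nearest gene), chr3:16741538-16742411 (63 in POM, 124 in ATRA+POM) and chr2:145906079-145906830 (62 in POM, 70 in ATRA+POM, with no DMSO or ATRA peak within 134 kb). All 10 thus had a pileup of at least 58 in POM and at least 70 in ATRA+POM.

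The regions were mostly distal. Their summits lay inside a protein-coding gene body in 36.9% of cases (35.8 to 37.99), against 54.0% for the 7736 regions called in the DMSO and ATRA lists only, 47.4% for regions called in all lists and 45.3% for all merged regions. They lay over 100 kb from any protein-coding gene body in 35.9% (34.8 to 37.0), against 7.74% of DMSO and ATRA only, 14.6% of regions in all lists and 20.5% of all merged regions. Within 1 kb of a gene boundary lay 1.69% (1.42 to 2.004), against 6.62% of DMSO and ATRA only, 22.2% of regions in all lists and 10.2% of all merged regions. The 2611 regions called in the ATRA and ATRA+POM lists only, which share the ATRA+POM library, had 41.3% inside a gene body, 28.7% over 100 kb away and 2.30% within 1 kb of a boundary. Where POM and ATRA+POM peaks were paired, and DMSO and ATRA peaks set aside, by 50% reciprocal overlap in place of any overlap, 9.99% lay within 1 kb of a boundary and 22.2% over 100 kb away. With summits within 250 bp these were 5.90% and 31.4%. Under reciprocal overlap the shares were thus close to the 10.2% near a boundary and 20.5% over 100 kb away of all merged regions.

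Many lay much further out. Over 500 kb from any gene body lay 862 regions (11.6%, against 5.81% of all merged regions), and 255 lay over 1 Mb away (3.44%, against 1.61% of all merged regions). The median distance to an annotated start site was 136 kb, against 94.6 kb in ATRA and ATRA+POM only, 34.0 kb in DMSO and ATRA only, 34.8 kb in regions of all lists and 55.8 kb in all merged regions. Within 1 kb of a start site lay 75 of 7024 regions with a start-site distance (1.07%), against 3.59% of DMSO and ATRA only and 20.7% of regions in all lists. Of the 2663 regions over 100 kb from a protein-coding gene, 747 (28.1%) lay inside a long non-coding RNA gene, against 28.6% of all-list regions at that distance.

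**Figure D2:**
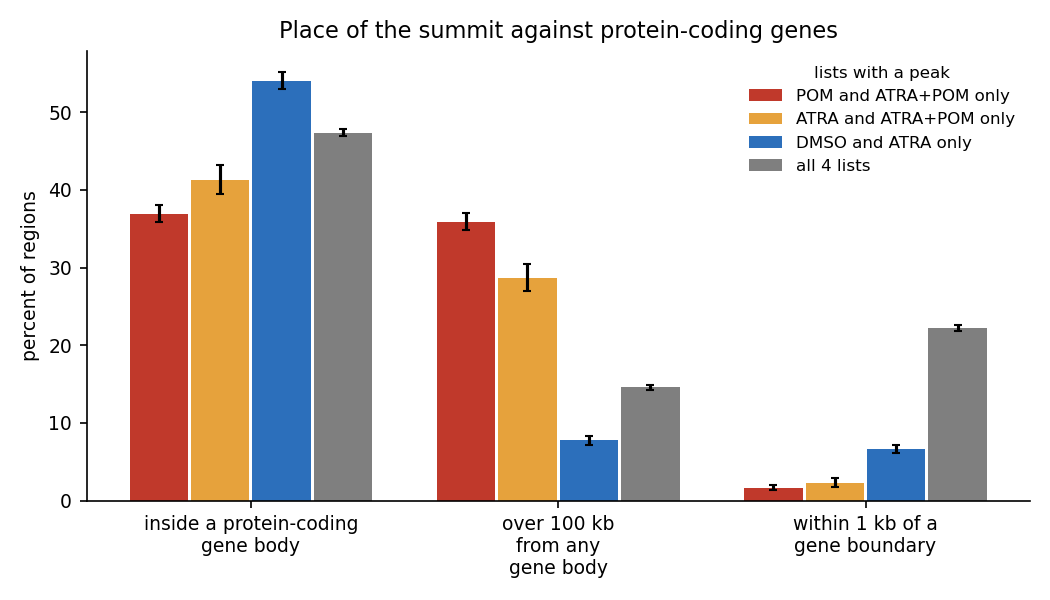
Percent of regions, with 95% Wilson intervals, whose summit lay inside a protein-coding gene body, over 100 kb from any, or within 1 kb of a gene boundary, for regions called in POM and ATRA+POM only, ATRA and ATRA+POM only, DMSO and ATRA only, and all 4 lists. The group called in POM and ATRA+POM only has 35.9% over 100 kb away and 1.69% near a boundary, against 14.6% and 22.2% in all lists.

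Among regions called in all lists, too, low peaks lay far from genes more often. Position was therefore also set against regions of equal POM pileup. The regions called in all lists were themselves chosen for having DMSO and ATRA peaks. Equal POM pileup thus does not make position independent of the choice. In all 7 height classes the 7417 regions had a lower share within 1 kb of a boundary and a higher share over 100 kb from genes than regions called in all lists. At 4 to 7 reads, 1.17% lay near a boundary, against 4.49% of regions in all lists, and 41.1% lay over 100 kb away, against 21.4% of regions in all lists. At 16 to 23 reads 2.04% lay near a boundary, against 11.2% of regions in all lists, and 32.3% over 100 kb away, against 16.7%. At 48 or more reads, where only 40 of the regions stood, 2.5% lay near a boundary, against 54.5% of regions in all lists, and 30% over 100 kb away, against 6.55%.

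**Figure D3:**
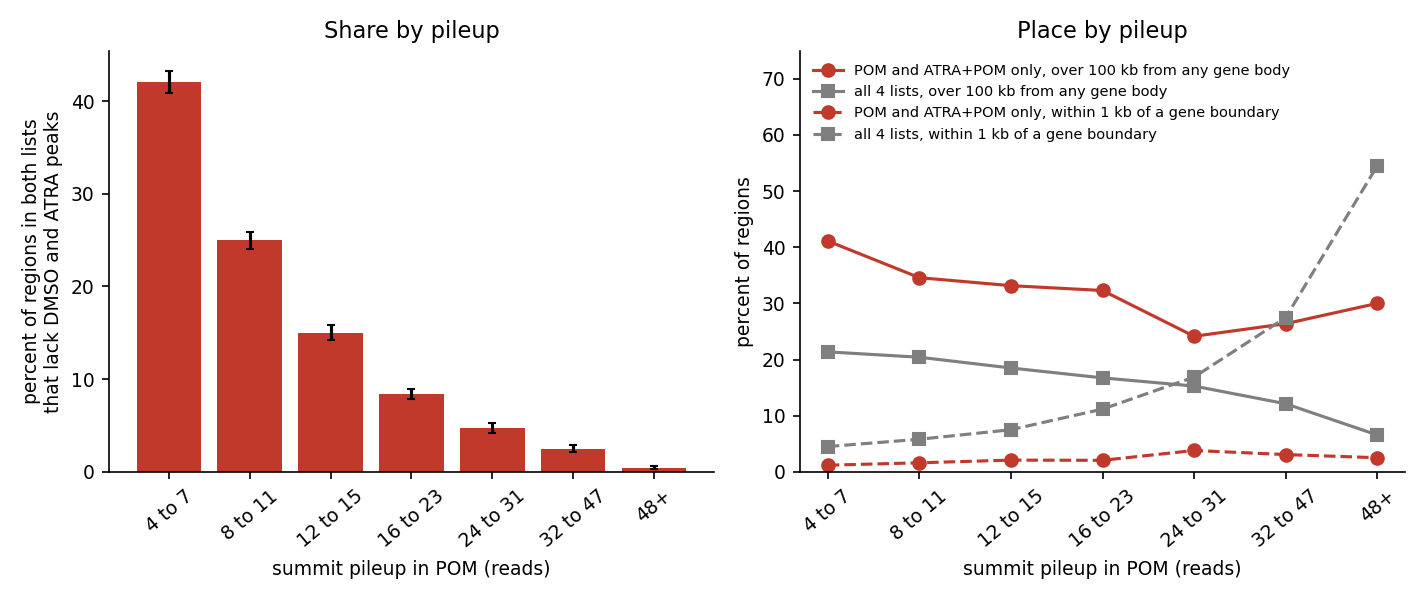
Left, percent of regions called in both POM-containing lists that lack DMSO and ATRA peaks, by POM summit pileup in reads, with 95% Wilson intervals; it goes down class by class, with 42.1% at 4 to 7 reads and 0.424% at 48 or more. Right, percent of regions over 100 kb from any gene body (solid) and within 1 kb of a gene boundary (dashed) in the same classes, for regions called in POM and ATRA+POM only (red) and in all 4 lists (grey); red lies above grey on the solid lines and below it on the dashed lines in every class.

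The nearest DMSO or ATRA peak lay 13.6 kb away at the median (quartiles 5.20 and 31.4 kb). It was within 250 bp for 62 regions and within 1 kb for 406 (5.47%). For 284 regions (3.83%) no DMSO or ATRA peak lay within 100 kb, and the farthest had none within 734 kb. Neighbouring regions of the 7417 lay 213 kb apart at the median, with 228 gaps (3.08%) under 10 kb.

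The share of these regions differed between chromosomes. They made up 8.92% of merged regions on chromosome X, 8.48% on chromosome 4 and 8.06% on chromosome 5, and 1.07% (40 of 3743) on chromosome 19, 1.08% (20 of 1856) on chromosome 22 and 2.36% on chromosome 17. Regions called in the DMSO and ATRA lists only had the other order, with 4.32% on X and 3.08% on 4, and 15.4% on 19 and 15.8% on 22. Chromosomes 13 and 18, with the fewest genes per Mb (2.96 and 3.36), had 7.05% and 6.26%, beside 6.05% over all chromosomes, and chromosome 21, with the fewest genes, had 4.46%. Across the 23 chromosomes, genes per Mb and the percent of the 7417 regions had a Spearman's rho of −0.69 and a Pearson's r of −0.71. With the number of these regions per Mb in place of the percent, rho was −0.41 and r −0.51. These describe points that share the same libraries.

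In 1-Mb windows the share was lower where more genes lay. Where a window held 0 protein-coding genes, 11.4% (10.8 to 12.05) of merged regions were called in POM and ATRA+POM only and 1.64% in DMSO and ATRA only. With 3 to 5 genes the shares were 6.91% in POM and ATRA+POM only and 4.76% in DMSO and ATRA only. With 6 to 10 genes they were 4.91% in POM and ATRA+POM only and 6.71% in DMSO and ATRA only, and with 21 or more genes 1.77% (1.57 to 1.99) in POM and ATRA+POM only and 12.3% in DMSO and ATRA only. Depth differs between these pairs of libraries, and base composition goes with gene number along the genome. Their part in this pattern was not tested.

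**Figure D4:**
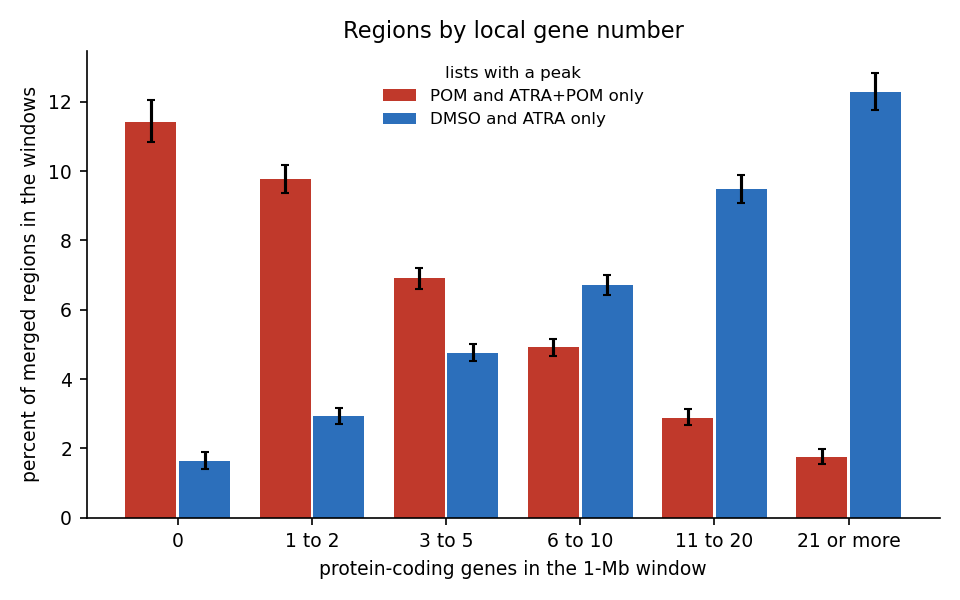
Percent of merged regions, with 95% Wilson intervals, that were called in POM and ATRA+POM only (red) or DMSO and ATRA only (blue), by the number of protein-coding genes in the 1-Mb window. Red goes down class by class, with 11.4% at 0 genes and 1.77% at 21 or more, and blue goes up, with 1.64% and 12.3%.

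The regions were spread widely. Of 2882 windows of 1 Mb with any region, 2398 held at least 1 of the 7417, 478 held 5 or more and 85 held 8 or more. The window with most was chr1:191000001-192000000, with 14 of 102 merged regions and no protein-coding gene. A second window without genes, chr1:238000001-239000000, had 12 of 78. Windows with 12 also lay on chromosome 4 at 117 to 118 Mb, around TRAM1L1 (of 51), and at 157 to 158 Mb, around GLRB, the glycine receptor beta subunit, and GRIA2, an AMPA glutamate receptor subunit (of 50). The last, on chromosome 11 at 21 to 22 Mb, held NELL1 (12 of 49). Each of these 5 windows had 1 region called in the DMSO and ATRA lists only.

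Of 19970 protein-coding genes, 1784 (8.93%) had at least 1 of the regions inside, 227 had 3 or more and 48 had 5 or more. Counting a region that is outside for its nearest gene within 100 kb as well, 3089 genes (15.5%) had one. Long genes had one more often: 259 of the 314 genes of 500 kb or more (82.5%) had one inside, and their density was 3.02 per Mb of gene body, against 1.43 per Mb in genes under 20 kb. In genes of 500 kb or more, 8.87% of all regions inside were of this group, against 1.85% in genes under 20 kb and 4.86% over all gene bodies, counting a region once for each gene body that holds it. Regions called in DMSO and ATRA only had the other order, with 1.44 per Mb in genes of 500 kb or more and 6.92 per Mb in genes under 20 kb. Of the 7417 regions, 10.6% (9.88 to 11.3) lay inside a gene body of 500 kb or more. The share was about the same in ATRA and ATRA+POM only, at 10.5% (9.34 to 11.7). It was 4.77% in DMSO and ATRA only, 5.72% in regions of all lists and 7.17% in all merged regions.

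The 10 genes with most regions inside are long, between 906 kb (NELL1) and 2304 kb (CNTNAP2). DLG2, a synaptic scaffold protein gene, held 12 of 116 merged regions, and CNTNAP2, a contactin-associated neurexin family gene, held 12 of 101. These are 10.3% of the DLG2 and 11.9% of the CNTNAP2 regions. The share was higher in PTPRD, a receptor tyrosine phosphatase gene (10 of 31, 32.3%), ZNF385D, a zinc finger gene (10 of 34, 29.4%), NCKAP5 (10 of 37, 27.0%) and NELL1, which encodes a secreted protein of bone growth (11 of 43, 25.6%). NRG1, which encodes the ErbB ligand neuregulin, held 10 of 53, CDH18, a type II cadherin gene, 9 of 48, ROBO2, an axon guidance receptor gene, 9 of 61 and GALNTL6, a glycosyltransferase-like gene, 9 of 84. The strongest inside these were chr11:85170009-85170817 in DLG2, with pileups of 52 in POM and 78 in ATRA+POM, and chr9:8660300-8661287 in PTPRD, with 41 in POM and 83 in ATRA+POM. A PTPRD region at chr9:9170570-9171175 (17 in POM and 21 in ATRA+POM) had no DMSO or ATRA peak within 312 kb. Some of the other regions inside were called in ATRA+POM alone, for instance 31 in DLG2 and 29 in CNTNAP2.

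Adhesion and receptor families with long genes had a region for a larger share of their genes than all genes did (15.5%). Type II cadherins, calcium-dependent adhesion proteins, had them inside or nearest for 8 of 13 genes, with 22 of 157 inside regions (14.0%) belonging to the group. Over all gene bodies that share was 4.86%, and in genes of 500 kb or more it was 8.87%, which the shares of the other families below can be set beside. The strongest was that near CDH8 described above, followed by one inside CDH12 at chr5:22372107-22373277, with pileups of 41 in POM and 85 in ATRA+POM. Ionotropic glutamate receptors had them for 10 of 18 genes, with 32 of 246 inside regions (13.0%). GRIK2, a kainate receptor gene, held 6 and GRIA2 4, and the strongest lay in GRIK1 at chr21:29938155-29938683, with 30 in POM and 65 in ATRA+POM.

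Contactins and contactin-associated proteins, neuronal adhesion molecules of the immunoglobulin and neurexin families, had them for 8 of 12 genes (28 of 250 inside regions, 11.2%), the strongest in CNTN4 with pileups of 26 in POM and 55 in ATRA+POM. Teneurins and latrophilins, which bind each other across synapses, had them for 6 of 8 genes (19 of 181, 10.5%), the strongest in ADGRL2 with 25 in POM and 27 in ATRA+POM. Non-clustered protocadherins had them for 7 of 12 genes (11 of 109, 10.1%), the strongest in PCDH7 with 23 in POM and 35 in ATRA+POM, and PCDH11X is uncertain because a near-identical copy on the Y chromosome can share reads. The median number inside a gene was 0 for the cadherins and the protocadherins, 1 for the glutamate receptors, 1.5 for the contactins and 2.5 for the teneurins and latrophilins, and 0 over all genes. Median gene length over these lists was 79.3 to 808 kb, and gene length goes with having a region.

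In the drug and retinoid pathways the lists are short and the intervals wide. Of the 6 retinoic acid and retinoid X receptor genes, 2 had one (33.3%, 9.68 to 70.0), and the interval covers the 15.5% of all genes. RARB had 4 regions among 31 inside its body, and RXRG had the one 37.2 kb away. RARA, RARG, RXRA and RXRB had 0, with 7, 2, 11 and 0 merged regions inside. RARB, the retinoic acid receptor beta gene, which is itself a classical target of retinoic acid, held low peaks. They had pileups of 9 in POM and 16 in ATRA+POM at chr3:24850027-24850526, and 8 in POM and 13 in ATRA+POM at chr3:25273556-25273958. Further on were 7 in POM and 19 in ATRA+POM at chr3:25349867-25350371, and 15 in both at chr3:25462462-25462896. None of the 4 reached a −log10 q-value of 10 in POM, and the fourth had a DMSO peak 1.01 kb and an ATRA peak 1.05 kb away. Of 12 retinoid metabolism genes, 3 had one as nearest gene (25%) and 0 had one inside: ALDH1A1, which encodes a retinaldehyde dehydrogenase (pileups 8 in POM and 13 in ATRA+POM), DHRS3, a retinal reductase gene (8 in POM, 22 in ATRA+POM), and RDH10, a retinol dehydrogenase gene (7 in POM, 17 in ATRA+POM).

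Of the 5 Ikaros family genes, 2 had one (40%, 11.8 to 76.9), and the interval covers the 15.5% of all genes. IKZF3 had 1 of its 8 inside regions and IKZF2 2 of 7, while IKZF1 had 0 of 8. The IKZF3 region, chr17:39757929-39758373, lay 411 bp from a gene boundary and had a pileup of 21 in POM and 55 in ATRA+POM. Its nearest listed start site was that of MIEN1 (summit at −27594 bp), so the boundary is not a listed start. The stronger IKZF2 region had 11 in POM and 18 in ATRA+POM. CRBN, which encodes cereblon, had 0 and held 1 merged region, which was called in DMSO and ATRA only. DDB1, an adaptor of the same ligase, had 1 at 1.58 kb with pileups of 9 in POM and 21 in ATRA+POM. The listed start nearest to that region was of VWCE (summit at −2560 bp). CUL4A, CUL4B and RBX1 had 0.

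Among 14 plasma cell and B cell transcription factor genes, 5 had one (35.7%, 16.3 to 61.2), beside 15.5% of all genes. EBF1, an early B cell factor that is switched off in plasma cells, had 4 inside and 5 with the nearest, the strongest 25.5 kb away with pileups of 19 in POM and 21 in ATRA+POM. POU2AF1, a B cell coactivator gene, had 1 with 20 in POM and 30 in ATRA+POM. MEF2C, a MADS-box factor gene, had 1 with 16 in POM and 25 in ATRA+POM, its summit at −494 bp from a listed start of MEF2C. PAX5, the B cell identity factor gene, had 1, and IRF8 had 1 as nearest gene with 5 in POM and 14 in ATRA+POM. IRF4, PRDM1, XBP1 and MYC had 0, although IRF4 held 5 merged regions and PRDM1 11. Over this list, 7 of 107 inside regions (6.54%) belonged to the group, beside 4.86% over all gene bodies.

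Among 8 myeloma surface antigen genes, CD40, a co-stimulatory receptor gene, had a region 421 bp outside its boundary. It had pileups of 19 in POM and 56 in ATRA+POM and a DMSO peak 1.04 kb away. Its nearest listed start site was that of NCOA5 (summit at −40317 bp), and no start of CD40 was listed nearer. SDC1, which encodes the plasma cell marker CD138, had one 59.2 kb away with 12 in POM and 24 in ATRA+POM, and the other 6, CD38 among them, had 0. NSD2 and FGFR3, the genes of the t(4;14) translocation, had 0, with 18 and 3 merged regions inside. MECOM, a zinc finger oncogene, also on chromosome 3, had 3 of 28, the strongest with pileups of 26 in POM and 30 in ATRA+POM, and GOLIM4 had 1 inside and 4 in all.

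Of 11 AP-1 family genes, 5 had one (45.5%, 21.3 to 72.0), beside 15.5% of all genes, and only BATF2 had it inside. The region near JUND, a JUN family gene, lay 8.85 kb away with pileups of 10 in POM and 27 in ATRA+POM. That near FOS, 19.8 kb away, had 11 in POM and 13 in ATRA+POM. That near BATF3 had 15 in POM and 28 in ATRA+POM, and that inside BATF2 had 8 in POM and 15 in ATRA+POM. The BATF2 summit lay at −23 bp from a listed start of BATF2. FOSL2 had 1 as well. In the other lists, with a median gene length of 5.13 kb (ribosomal) to 19.9985 kb (interferon), a region was found for 1 of 8 NF-kB genes (12.5%, 2.24 to 47.1; NFKBIA, the gene of the inhibitor IkB alpha, with 15 in both libraries for the strongest), 1 of 22 interferon-stimulated genes (4.55%, 0.807 to 21.8; IFI44, 8 in POM and 17 in ATRA+POM), 2 of 15 cell cycle genes (13.3%, 3.74 to 37.9), 0 of 12 BCL2 family genes (up to 24.2%) and 0 of 22 ribosomal protein genes (up to 14.9%). All of these intervals except the last cover 15.5%. The strongest NFKBIA region had a DMSO peak 0.408 kb away. The cell cycle genes were E2F2, an E2F transcription factor gene, with a region 2.50 kb away at 39 in POM and 57 in ATRA+POM, and CDK6, the gene of a G1 kinase, with 13 in POM and 33 in ATRA+POM at 36.3 kb.

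**Figure D5:**
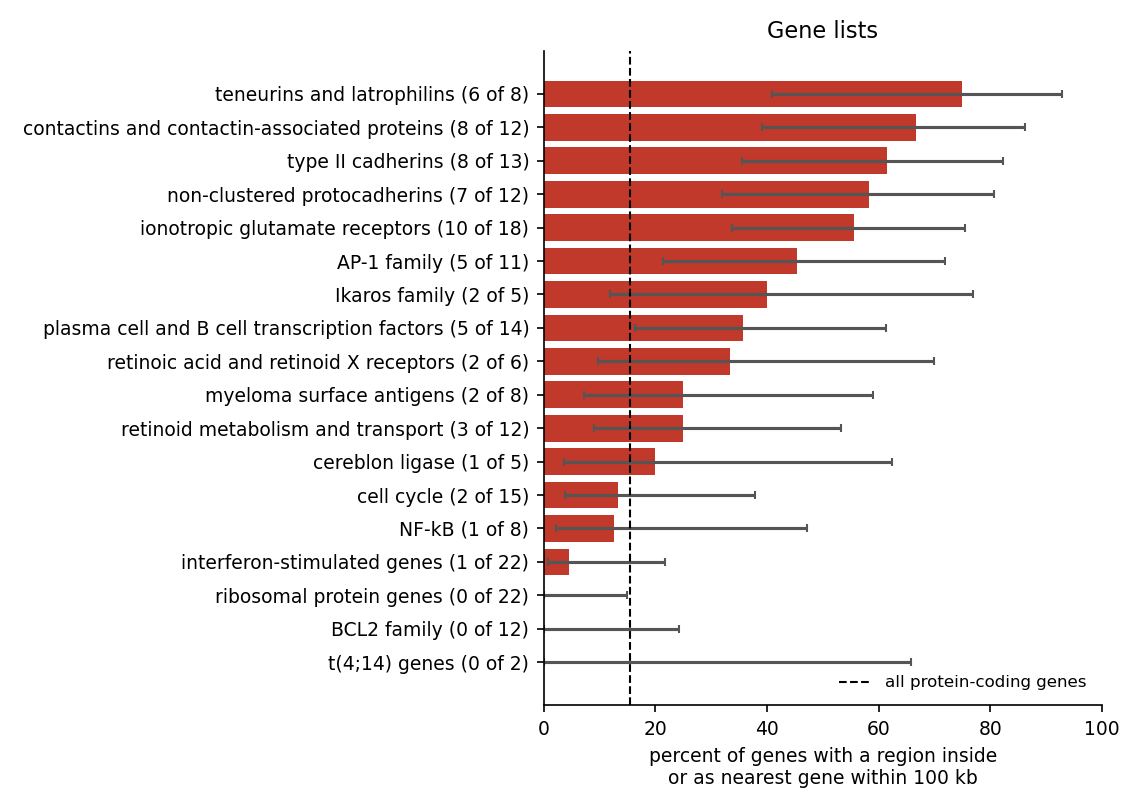
Percent of the genes of each list with a region of the 7417 inside or with the gene as nearest within 100 kb, with 95% Wilson intervals; the number of genes stands beside each name and the dashed line is the 15.5% of all protein-coding genes. The 5 families of long adhesion and receptor genes stand at the top, and the BCL2 family, ribosomal protein and t(4;14) genes at 0.

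Close to gene boundaries, 132 of the regions had a summit of either list within 1 kb. After PPP1R14D, the strongest lay at SUMF2, a sulfatase-modifying factor gene (34 in POM and 58 in ATRA+POM), KLHL18, which encodes a cullin 3 adaptor (36 in POM, 66 in ATRA+POM), and RPE65 (chr1:68449624-68450549, 31 in POM, 72 in ATRA+POM). The RPE65 summit in ATRA+POM lay 132 bp upstream of the start site, in the window printed above, and the nearest peaks were 4.05 kb away in ATRA and 4.14 kb away in DMSO. The CASP5 region, chr11:105022643-105023656, had 26 in POM and 36 in ATRA+POM, with its summit 62 bp upstream of the start. The GBP4 region, chr1:89198665-89199304, had 21 in POM and 35 in ATRA+POM, with summits 23 bp from the start on either side, and no DMSO or ATRA peak within 60.3 kb. The DPP10 region, chr2:114442446-114442892, had 20 in POM and 26 in ATRA+POM, with its ATRA+POM summit 65 bp downstream of the start. The remaining 3 were at NEK10, a NIMA-related kinase gene (23 in POM, 31 in ATRA+POM), SPCS1, a signal peptidase subunit gene (36 in POM, 58 in ATRA+POM) and SLC45A4, a solute carrier gene (24 in POM, 23 in ATRA+POM). Some of these boundaries were not listed start sites. Relative to the nearest listed start, of any gene, the summit lay at −8049 bp for PPP1R14D and 12861 bp for SUMF2. It lay at −33662 bp for KLHL18, 110357 bp for NEK10 and −4757 bp for SPCS1. In these 10, then, the unscaled pileup was higher in ATRA+POM, the deeper library, than in POM except at SLC45A4. On the scale of both libraries the log2 ratio was positive only at RPE65 (0.38) and KLHL18 (0.037). It was negative at all the others, between −0.067 at SUMF2 and −0.90 at SLC45A4.

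Another protein-coding gene's promoter window, named here after its values were seen, held a region whose smaller −log10 q-value in POM and ATRA+POM was above that of CASP5. It belongs to a start site of ALK, a receptor tyrosine kinase gene, that lies 698 kb inside the gene from its 5′ end. The region, chr2:29223890-29224410, had a pileup of 33 in POM and 36 in ATRA+POM, with its summits at −196 bp in POM and −200 bp in ATRA+POM relative to that start. In all, 49 of the 15692 protein-coding genes with a promoter window had one of the regions on it. These were 52 of the 12339 windows of protein-coding genes that held any merged region.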

How the data were processed

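The samples were 4 groups of OPM-2 cells with 1 ATAC-seq library each, grouped by the treatment label. Per the labels' protocols, nuclei were tagged with Tn5 and the DNA was sequenced on an Illumina NovaSeq instrument. The submitters' processing notes name hg38 as the build. The aligner, the peak caller and its settings, and any Tn5 offset of the reads were not given in the sources used here. The authors deposited 1 peak list and 1 summit list per library, called separately and not on pooled libraries. Each score in the deposited lists equals 10 times the −log10 q-value, rounded down, and each deposited fold is a ratio of summit to local background, judged from the values. The −log10 p-value and −log10 q-value are the authors' own and belong to the summit. The deposited summit distance gives the summit's offset from the peak start.

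Peaks on chromosomes 1 to 22 and X were merged where they shared at least 1 bp, which left out 5 peaks. Bedtools 2.31.1 gave the same 122632 regions. Whole-number pileups were recovered from fold and p-value under a Poisson tail, an assumption about the caller. The pileups returned the −log10 p-value of the deposited lists within 0.01 for 100% of peaks. Relative depth was estimated as the recovered background over the smallest peak width of the list, without read totals. A region's summit is that of its peak with the highest −log10 q-value. Genes and promoter sequences came from RefSeq tables of GRCh38.p14, the assembly of hg38. The start-site table leaves out one autosome, and no genome was used, so motifs were searched in promoter windows in place of summit windows. Regions inside genes were not split into exons and introns. Intervals are Wilson intervals at 95%, and for medians order-statistic binomial intervals. No test was run with 1 library a group. Scripts used Python 3.11.15, numpy 2.4.6, pandas 2.3.3 and scipy 1.17.1, and were tested on simulated data.

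The regions, the 18 gene lists and the alternatives were chosen with earlier results of these data known. The text names, by rule, the 10 regions with the highest smaller-of-both −log10 q-value, the 10 genes with most regions inside, the 10 strongest regions within 1 kb of a gene boundary, the 5 fullest 1-Mb windows, 15 genes whatever their result, and up to 4 genes a list.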

Additional observations from a re-analysis of the deposited data

How the results depend on the processing

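No paired analysis was possible because each group had 1 library. Against 7417 regions in the main rule, 1548 were left with a −log10 q-value of at least 10 in both POM-containing lists and 3394 with both peaks at least 300 bp wide, since both settings keep a subset. The other 6 alternatives gave 5825 to 9955. A 50% reciprocal overlap gave 9955, of which only 4692 (47.1%) overlapped one of the 7417, and summits within 250 bp gave 8773. These settings let in regions beside or within a wider DMSO or ATRA peak. Under them, the share within 1 kb of a boundary was 9.99% and 5.90%, the share inside genes 44.8% and 40.3%, and the share over 100 kb away 22.2% and 31.4%, against 1.69%, 36.9% and 35.9% in the main rule. The shares with reciprocal overlap were close to those of all merged regions, at 10.2%, 45.3% and 20.5% in the same order. The boundary share was 1.56% to 1.81% under the other 6 alternatives. The share over 100 kb away was 33.0% at a −log10 q-value of at least 5 in all lists and 33.8% at 10 in both, where 38.6% lay inside genes. The median POM pileup (9) was 12 at 5 and 18 at 10, 10 with lists of equal length, 13 with reciprocal overlap, 10 with summits and 11 with wide peaks. The median log2 ratio of ATRA+POM over POM (0.16) turned to −0.079 at 10 in both. It was 0.10 at 2 in all lists, 0.041 at 5, 0.20 with lists of equal length and 0.0036 with reciprocal overlap. The cause was not tested. Counting overlapping promoter windows once, chosen after seeing the data, moved no motif share beyond its interval. The lower depth of POM limits how small a peak could be called there, and the lists give no value where no peak was called.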
